A study of Homo sapiens with 4 samples.

Results

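CDKN1A-high cells are the BEAS-2B cells whose CDKN1A messenger RNA took the largest share of their own transcripts. BEAS-2B cells derive from the epithelium of the human bronchus and were immortalized with a hybrid virus that carries the SV40 T antigen, a protein known to bind p53. The cells were given 10 mGy, 100 mGy or 1 Gy of gamma rays from Cs-137 or were left as control, and they were collected soon after irradiation. Each dose was measured in 1 single-cell library, so dose and library cannot be told apart. All libraries come from the same line, and no gene was altered. In the droplet method each cell carries a barcode, and each captured RNA molecule counts as 1 unique molecular identifier (UMI). Cells were kept when they had at least 5000 UMIs and at most 10% of them in mitochondrially encoded (MT-) genes. The score of a cell was its CDKN1A UMIs over its total UMIs, written here on the CPM scale (the usual rescaling of a count by the total of its library or cell), and the CDKN1A-high cells were those above the 95th percentile of their own library. This gave 450 of 8998 kept cells in the control, 626 of 12515 after 10 mGy, 713 of 14245 after 100 mGy and 573 of 11455 after 1 Gy. In all, 2362 of 47213 kept cells were chosen, from 68085 deposited barcodes. The kept cells of a library held between 204857725 and 269750978 UMIs.

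CDKN1A encodes p21, an inhibitor of the cyclin-dependent kinases that drive cells from G1 into S phase. It is a classical target of p53, the transcription factor that is stabilized after DNA damage and that also switches on its own antagonist, MDM2. When p21 holds the kinases back, proteins of the RB family keep genes of S phase and mitosis silent, which is why p21 is known as a marker of arrest. p21 can also rise without p53, for example through growth factor and stress signalling.

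Because the rule used CDKN1A itself, the CDKN1A values only describe the selection, and CDKN1A was taken out of the comparisons of chosen with other cells. The level was 314 CPM in the CDKN1A-high cells of the control, 272 CPM after 10 mGy, 305 CPM after 100 mGy and 295 CPM after 1 Gy. In the other cells it was 15.6, 20.6, 12.9 and 16.5 CPM, in the same order. The chosen cells held 47.8% of all CDKN1A UMIs of the control, 37.9% after 10 mGy, 50.1% after 100 mGy and 45.5% after 1 Gy. The threshold lay at 92.9, 118, 101 and 109 CPM. At this edge the CDKN1A count was 1 or 2 UMIs. In the control the lowest chosen cell had 1 CDKN1A UMI among 10731, and the highest cell left out had 1 among 10764. After 10 mGy both cells had 2 UMIs, among 16976 and 16977.

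Most chosen cells therefore carried little CDKN1A. Between 78.3% and 86.8% of them had 1 to 4 CDKN1A UMIs. A small group stood far above the rest, with 10 or more UMIs and up to 216 in the control, 103 after 10 mGy, 81 after 100 mGy and 115 after 1 Gy. This group held 42 cells of the control, 54 after 10 mGy, 57 after 100 mGy and 41 after 1 Gy, or 194 in all. As a share of kept cells that was 0.467% in the control (exact 95% interval 0.337 to 0.630), 0.431% after 10 mGy (0.324 to 0.563), 0.400% after 100 mGy (0.303 to 0.518) and 0.358% after 1 Gy (0.257 to 0.485). The 4 intervals overlapped. These few cells carried 29.9%, 17.4%, 27.7% and 23.5% of all CDKN1A UMIs of their libraries. A limit on the count depends on depth, which differs between the libraries. With a score of 500 CPM or more as the limit, the shares of kept cells were 0.411%, 0.336%, 0.372% and 0.358%, without a steady order by dose. The limits of 5 and 10 UMIs and of a score of 500 CPM were set after the values were seen, and results by these limits are descriptions without a test.

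**Figure D1:**
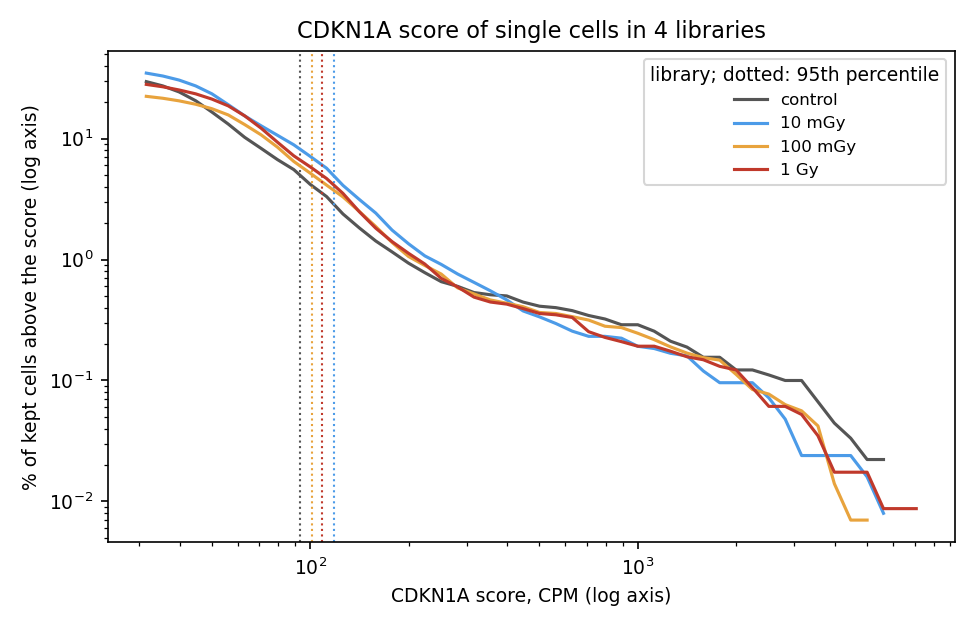
Share of kept cells (y axis, percent, log scale) above each CDKN1A score (x axis, CPM, log scale) in the 4 libraries, with the 95th percentile of each library as a dotted line. The thresholds lie between 92.9 and 118 CPM, and every library, the control included, has a tail that goes on beyond 1000 CPM.

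Across doses the level of CDKN1A in kept cells was 28.6 CPM in the control, 31.7 CPM after 10 mGy, 24.8 CPM after 100 mGy and 28.9 CPM after 1 Gy. Without the UMIs of ribosomal protein and MT- genes in the total it was 35.6, 41.8, 33.6 and 35.9 CPM. With the threshold of the control applied to all libraries, 8.25% of the kept cells lay above it after 10 mGy, 5.90% after 100 mGy and 6.73% after 1 Gy, against 5.0% in the control. The libraries differ in depth. With at least 10000 UMIs per cell the shares were 5.01% in the control and 8.12%, 4.72% and 6.30% with rising dose. When each cell was thinned to 5000 UMIs, 1.14%, 1.55%, 1.11% and 1.07% of the cells had more than 1 CDKN1A UMI, in the order control, 10 mGy, 100 mGy and 1 Gy. The exact intervals were 0.935 to 1.39 for the control, 1.34 to 1.78 for 10 mGy, 0.944 to 1.30 for 100 mGy and 0.893 to 1.28 for 1 Gy. The interval of 10 mGy overlapped that of the control and lay above those of 100 mGy and 1 Gy. Before thinning, 33.8%, 38.3%, 23.8% and 29.6% of the kept cells had any CDKN1A UMI, and after thinning 9.95%, 12.1%, 9.12% and 10.3%. The libraries hold 1 cell line and no cell type known to lack CDKN1A, so a background share from free RNA was not measured. Intervals cover counting error only.

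Since the score divides by total UMIs, the rule favours shallow cells, and the chosen cells had fewer UMIs than the others. Their median was 19140.5 against 21863 in the control, 16702 against 20139 after 10 mGy, 11601 against 15395 after 100 mGy and 15093 against 16549 after 1 Gy. The group of 10 or more UMIs went the other way, with medians of 25514.5, 27628.5, 18502 and 21312, but a limit on the count favours deep cells. Cells with a score of 500 CPM or more had medians of 23045, 18310, 17140 and 19807. The share of UMIs in MT- genes was close, with medians from 4.83% to 5.87% in chosen cells and from 4.57% to 5.97% in the others. Ribosomal protein genes took a median of 13.7% of the UMIs of other cells in the control and after 1 Gy, but 19.6% after 10 mGy and 21.4% after 100 mGy, so the libraries fall into 2 pairs that do not follow dose. Between 76 and 134 barcodes were shared by any 2 libraries and 10 by all 4, but no CDKN1A-high cell of 1 library shared its barcode with one of another. Doublets were kept.

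The label of the line was checked against markers. The keratin and epithelial list summed to between 4290 and 4937 CPM in the chosen cells and between 4236 and 4706 CPM in the others, although KRT5, KRT14 and CDH1 had too few UMIs to be tested. Of the airway subtype list only AGER of 9 genes was tested, and the list summed to between 0.828 and 1.43 CPM in chosen cells. The leukocyte list summed to between 8.69 and 13.6 CPM in chosen cells and between 8.52 and 11.6 CPM in others. PTPRC, which marks leukocytes, and CD3E, which marks T cells, did not pass the filter. The endothelial list stayed under 1 CPM in both. In the test described below, 3.76% of all genes were called higher in the chosen cells and 0.989% lower. Beside these shares, none of 3 leukocyte and 3 endothelial genes tested was called. Of 5 fibroblast genes tested, COL1A1 was called higher, and DCN and LUM did not pass the filter.

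The main question was what else differed in a cell with much CDKN1A. UMIs were summed over the chosen and over the other cells of each library, and the 8 sums were compared by edgeR's quasi-likelihood test with the library as a block. A gene was called when its adjusted p was under 0.05 and its change over 1.2-fold. Of 18093 genes, 681 were higher in CDKN1A-high cells (3.76%) and 179 were lower (0.989%). The contrast averages over the 4 libraries of 1 cell line, since no dose has a replicate. Its p-values and standard errors rest on a spread that edgeR shares between genes, not only on a gene's own 4 ratios. Both can be smaller than those 4 ratios alone would give. MDM2, for example, had log2 ratios of 2.09, 1.76, 2.23 and 1.89 in the control and after 10 mGy, 100 mGy and 1 Gy. Without the 10 mGy library 418 genes were higher, and without the 100 mGy library 447. Without the fold limit 1180 genes were higher and 2315 lower, and without the library as a block edgeR called 41 higher and 0 lower (522 and 167 at an unadjusted p under 0.05). DESeq2 called 357 higher and 140 lower, and limma 555 and 83. The balance of higher and lower genes depended on the scaling. At an unadjusted p under 0.05 the main edgeR fit had 1906 higher and 3386 lower, and scaling by total counts only had 2893 and 1701.

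The genes of the p53 response rose together. Of 32 p53 target genes other than CDKN1A, 27 were called higher and 0 lower, against 3.76% and 0.989% of all genes. SPATA18 is one of them and passed the filter on low counts only through the chosen sums, so its call was favoured by the filter, and 26 were called without it. Among all genes 32 of the 681 were called in that way. At an adjusted p under 0.05 with no fold limit, all 32 were higher. The median log2 difference of the list was 0.55, against −0.01 over all genes tested. Values differed by gene far more than by dose.

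MDM2 (ENSG00000135679), the ubiquitin ligase that returns p53 to low levels, was at 228 CPM in the chosen cells of the control, 91.5 CPM after 10 mGy, 121 CPM after 100 mGy and 189 CPM after 1 Gy. In the other cells it was at 53.6, 27.0, 26.0 and 50.9 CPM. Every chosen sum was above every other sum. The rise was 3.85-fold (log2 difference 1.95 ± 0.04 SE, adjusted p = 1.4e-44, higher in 4 of 4 libraries).

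GDF15 (ENSG00000130513), a secreted stress cytokine of the TGF-beta family, was at 15.1, 19.8, 25.8 and 10.7 CPM in the chosen cells and at 0.186, 0.477, 0.228 and 0.158 CPM in the others, in the order control, 10 mGy, 100 mGy and 1 Gy. GDF15 was higher in the chosen cells of 4 of 4 libraries, with a log2 difference of 6.01 ± 0.11 (SE). The converse held for cells rich in GDF15 or MDM2. Of 66 kept cells with at least 3 GDF15 UMIs, 66 were CDKN1A-high cells, and 60 of them had 10 or more CDKN1A UMIs. Of 126 cells with MDM2 at 500 CPM or more, 124 were CDKN1A-high, and 2 had no CDKN1A UMI. By the rule, 5% of the cells are CDKN1A-high.

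Effectors of arrest and of death were both among the genes that rose. BTG2, an antiproliferative protein, had a log2 difference of 1.97 ± 0.08 (SE). BBC3, which encodes the death protein PUMA, was at 7.17, 3.62, 6.83 and 5.27 CPM in the chosen cells and at no more than 1.78 CPM in any sum of other cells, a log2 difference of 1.90 ± 0.13. PMAIP1, which encodes NOXA, rose by 0.53 ± 0.03 on the same scale. BAX, the pore protein of the same pathway, passed the adjusted p but not the fold.

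Among enzymes and repair genes, FDXR, an electron carrier reductase of mitochondria, rose by a log2 difference of 1.35 ± 0.05 (SE, adjusted p = 9.0e-136). TP53I3 rose by 1.19 ± 0.05. DDB2, which recognizes damaged bases in nucleotide excision repair, rose by 0.56 ± 0.04. The regulator ZMAT3 rose by 0.64 ± 0.04 and PHLDA3, a repressor of AKT, by 0.61 ± 0.04. TRIM22, a protein of antiviral defence, had at most 10.1 CPM in a chosen sum and a log2 difference of 2.63 ± 0.12.

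**Figure D2:**
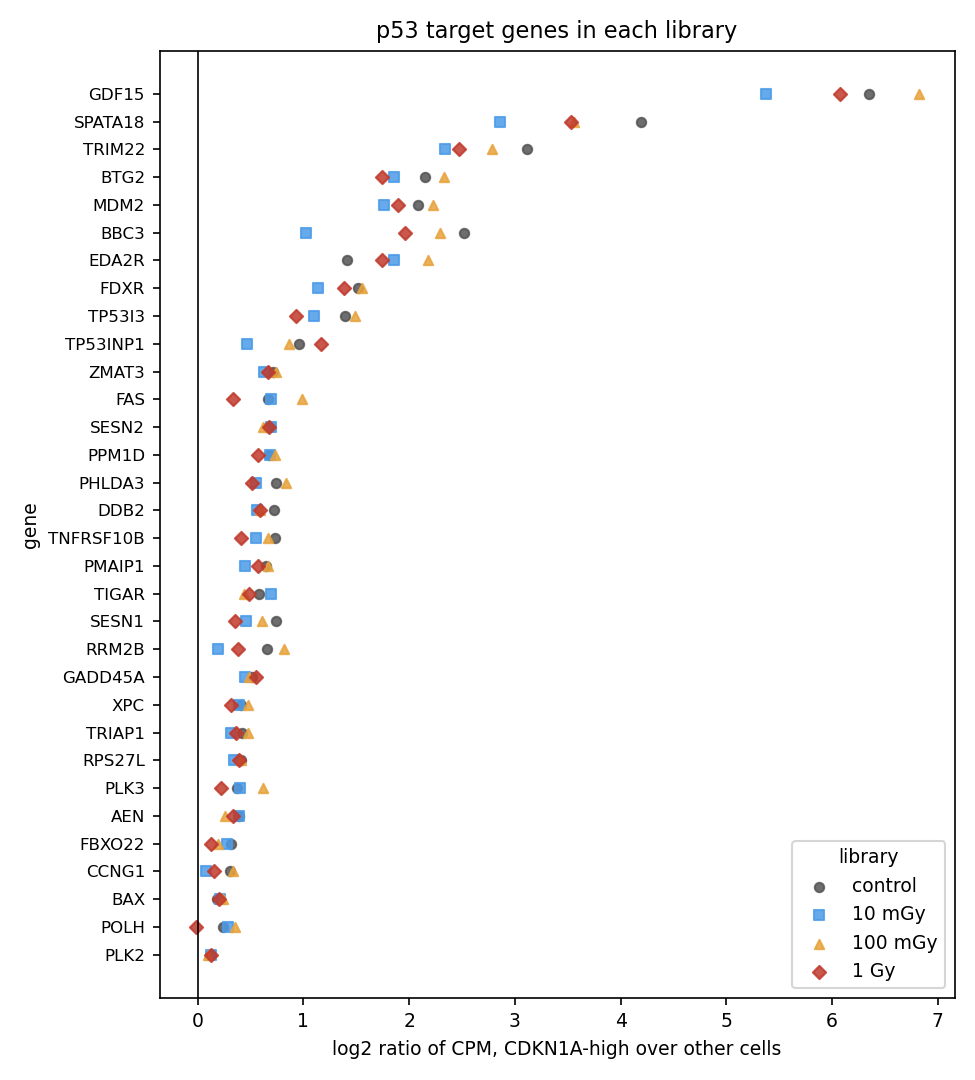
Log2 ratio of CPM in CDKN1A-high over other cells (x axis) for the 32 p53 target genes (y axis) in each of the 4 libraries. All points but that of POLH after 1 Gy lie to the right of 0, and the control (grey circles) is spread among the irradiated libraries.

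The p53 targets as a list were higher in the chosen cells of the control too. The median log2 ratio of the 17 p53 targets of at least 20 CPM was 0.52 in the control, 0.44 after 10 mGy, 0.48 after 100 mGy and 0.41 after 1 Gy, against −0.01, −0.01, −0.00 and −0.01 over the 6487 genes of that level. Whether these values differ between doses was not tested, since there is 1 library per dose.

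None of the 13 tested genes of damage sensing and p53 regulation was called, which is near the 3.76% and 0.989% of all genes. ATR, a damage kinase, had a log2 difference of −0.21 ± 0.04, under the fold limit. Of the other inhibitors of cyclin-dependent kinases, CDKN1C (p57) was called, at 0.99 ± 0.26 and with 8 to 15 UMIs per chosen sum. CDKN1B (p27) had −0.09 ± 0.04 and CDKN2A had −0.05 ± 0.02, both not called. Of the 5 tested neighbours of CDKN1A on the chromosome, none was called, and the splicing factor SRSF3 had −0.13 ± 0.02.

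Summed over the list, the p53 targets were highest in the few cells with 10 or more CDKN1A UMIs. MDM2 in these cells was at 1375, 455, 687 and 1312 CPM, in the same order of doses, whereas cells with 1 to 4 CDKN1A UMIs had 59.3, 36.3, 31.9 and 54.1 CPM. GDF15 was at 113, 142, 180 and 102 CPM in the first group and at 0.429, 0.613, 1.06 and 0.546 CPM in the second. FDXR was at 170, 93.8, 129 and 170 CPM and at 10.3, 11.6, 16.6 and 15.3 CPM. All 32 p53 targets were above the other cells in all 4 libraries in the first group, as were 11.5% of all genes. In the cells with 5 to 9 UMIs that held for 23 of 32, and for 6.93% of all genes. In the cells with 1 to 4 UMIs it held for 18 of 32, and for 15.2% of all genes. PLK2 and PLK3 were exceptions to the order. After 100 mGy PLK2 was at 218 CPM in the first group but at 248 CPM at 5 to 9 UMIs. After 1 Gy PLK3 was at 23.2 CPM in the first group but at 23.9 CPM at 1 to 4.

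**Figure D3:**
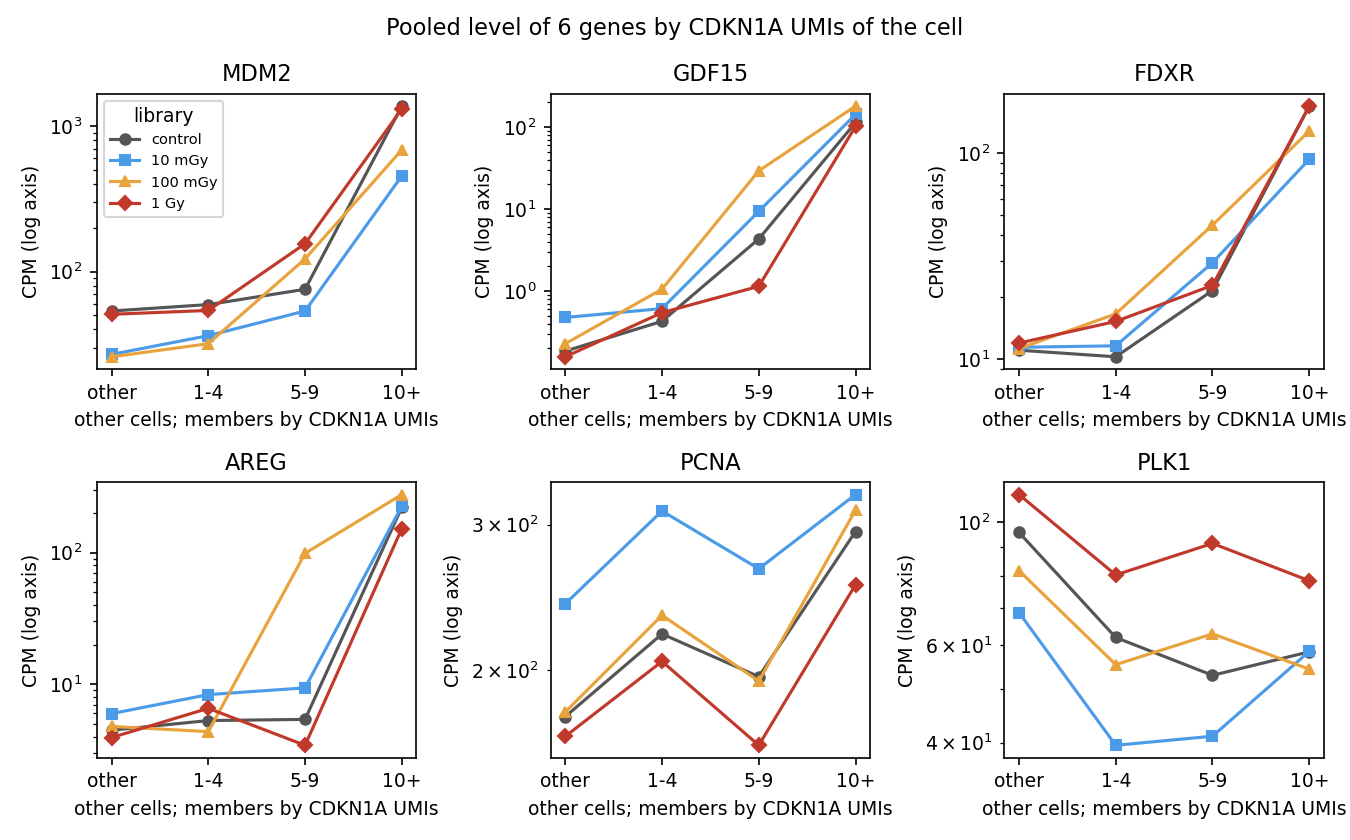
Pooled level (y axis, CPM, log scale) of 6 genes in the other cells and in CDKN1A-high cells with 1 to 4, 5 to 9 and 10 or more CDKN1A UMIs (x axis), 1 line per library. MDM2, GDF15, FDXR and AREG climb at 10 or more UMIs in every library. At 1 to 4 UMIs MDM2 and GDF15 are already above the other cells in every library, and PLK1 is already lower.

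In the top group most cells held several p53 targets, as each of these was detected in many cells. Of MDM2, GDF15, BTG2, FDXR and TP53I3, at least 4 were detected in 33 of 42 cells of the control, 31 of 54 after 10 mGy, 37 of 57 after 100 mGy and 19 of 41 after 1 Gy. In the other cells the share was between 0.185% and 0.503%. Among CDKN1A-high cells with 1 to 4 UMIs it held for 1 of 378, 3 of 490, 6 of 619 and 0 of 495, where a limit of 3 counts allows the last a share of up to 0.606%. The top group is deeper, so shares were also taken after thinning to 5000 UMIs. MDM2 was then detected in 88.1%, 70.4%, 82.5% and 92.7% of the top cells and in 22.8%, 12.3%, 11.6% and 22.3% of the other cells.

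In the top group MDM2 was 16.9 times the level of the other cells after 10 mGy and 25.7, 26.5 and 25.8 times in the control, after 100 mGy and after 1 Gy, as values without a test.

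Without the cells of 10 or more UMIs, 10 of 32 p53 targets were still called, SPATA18 with its filter limit among them, and the median of the list was 0.19. Without all cells of 5 or more UMIs, GDF15, BTG2, PMAIP1 and TRIM22 were still called, beside SPATA18 with its limit given above, with a median of 0.12, and MDM2 had a log2 difference of 0.16 and was no longer called. Over all genes 419 and 324 were then higher. The call of GDF15 without the cells of 5 or more UMIs rested on few UMIs. With rising dose from the control, 0.794%, 1.02%, 1.29% and 0.808% of those chosen cells had a GDF15 UMI. In the other cells the shares were 0.433%, 0.993%, 0.377% and 0.285%.

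Promoter sequences are shown for CDKN1A, for 2 genes of the p53 group and for 2 of the mitotic genes described next, because these groups moved in opposite directions. They are the 250 bases before the start of each gene in RefSeq (GRCh38.p14), 5′ to 3′ on the strand of the gene. Capitals mark GGGCGG (the GC box) on either strand, TATAAA on either strand, TTTGAA or TTCGAA (the cell cycle homology element) on either strand, and the p53 half-site, named by its consensus. The regions are chr6:36678464-36678713 (plus strand) for CDKN1A, chr19:18385908-18386157 (plus) for GDF15, chr17:74872995-74873244 (minus) for FDXR, chr16:23678639-23678888 (plus) for PLK1 and chr2:26785806-26786055 (plus) for CENPA.
CDKN1A: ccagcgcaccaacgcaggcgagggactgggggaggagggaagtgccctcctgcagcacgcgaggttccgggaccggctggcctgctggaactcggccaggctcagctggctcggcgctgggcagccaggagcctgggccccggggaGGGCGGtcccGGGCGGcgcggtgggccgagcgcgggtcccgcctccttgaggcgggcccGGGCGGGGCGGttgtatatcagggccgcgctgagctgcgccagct
GDF15: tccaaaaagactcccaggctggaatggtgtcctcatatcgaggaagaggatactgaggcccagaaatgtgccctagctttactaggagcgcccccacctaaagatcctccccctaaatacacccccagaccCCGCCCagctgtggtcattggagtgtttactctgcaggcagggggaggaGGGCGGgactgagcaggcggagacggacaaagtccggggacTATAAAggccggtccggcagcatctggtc
FDXR: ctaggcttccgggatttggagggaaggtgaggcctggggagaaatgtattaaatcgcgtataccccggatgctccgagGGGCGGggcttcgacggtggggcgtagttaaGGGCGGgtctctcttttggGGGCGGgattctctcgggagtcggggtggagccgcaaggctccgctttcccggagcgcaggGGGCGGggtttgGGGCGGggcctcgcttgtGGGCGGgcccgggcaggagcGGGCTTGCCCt
PLK1: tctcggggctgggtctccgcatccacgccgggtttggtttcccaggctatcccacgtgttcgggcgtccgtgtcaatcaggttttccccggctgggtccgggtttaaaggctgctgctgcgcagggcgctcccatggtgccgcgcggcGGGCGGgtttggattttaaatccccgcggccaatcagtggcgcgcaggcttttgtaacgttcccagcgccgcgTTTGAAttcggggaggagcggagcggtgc
CENPA: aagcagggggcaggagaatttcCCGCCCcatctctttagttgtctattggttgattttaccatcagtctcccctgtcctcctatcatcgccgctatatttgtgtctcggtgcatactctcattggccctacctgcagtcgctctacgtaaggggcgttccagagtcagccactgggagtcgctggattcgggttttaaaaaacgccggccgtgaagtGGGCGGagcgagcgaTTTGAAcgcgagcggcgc
The CDKN1A window holds 4 GC boxes, of which those starting at −45 and −40 overlap, and no p53 half-site. GDF15 has TATAAA at −29. FDXR has 2 windows, of which the first is shown, with a p53 half-site at −11. PLK1 has the homology element at −29 and CENPA at −18.

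Over all genes, a p53 half-site was found in 24% of the promoters of p53 targets (6 of 25 with an entry), in 17.2% of those of the S phase list (5 of 29), in 11.4% of those of the G2/M list (5 of 44) and in 6.55% of those of tested genes. The exact interval of the p53 list was 9.36% to 45.1%. The sequence TTTGAA or TTCGAA was found in 61.4% of the promoters of the G2/M list (27 of 44), in 10.3% of those of the S phase list (3 of 29), in 8% of those of p53 targets (2 of 25) and in 13.5% of those of all 11602 tested genes with an entry. The GC box was in 72.4% of the promoters of tested genes, 75% of those of the G2/M list, 75.9% of those of the S phase list and 88% of those of p53 targets (22 of 25, exact interval 68.8% to 97.5%). TATAAA was in 8.36% of the promoters of tested genes, 4.55% of those of the G2/M list, 6.90% of those of the S phase list and 4% of those of p53 targets (1 of 25). These are matches of letters within the window, and a gene counted when any of its windows matched. Sites further from the start were not searched.

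Genes of G2 and mitosis fell. Of the 52 genes of the G2/M list, 43 were called lower and 0 higher, against 0.989% and 3.76% of all genes, and the median log2 difference was −0.38. PLK1 (ENSG00000166851), a kinase of mitotic entry, was at 60.5, 42.2, 55.9 and 81.2 CPM in the chosen cells and at 95.8, 68.7, 81.7 and 112 CPM in the others, in the order control, 10 mGy, 100 mGy and 1 Gy. It was lower in every library, with a log2 difference of −0.63 ± 0.03 (SE, adjusted p = 4.7e-78). AURKA, the kinase of the spindle poles, was at 174, 111, 159 and 202 CPM against 260, 187, 236 and 274 CPM, a log2 difference of −0.63 ± 0.02.

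CENPA, the histone of the centromere, fell by 0.60 ± 0.05 on the log2 scale and CENPE, a kinetochore motor, fell by 0.58 ± 0.03. UBE2C, which marks mitotic proteins for destruction, fell by 0.53 ± 0.02. CCNB1, the cyclin of mitosis, was at 189, 157, 199 and 211 CPM against 251, 227, 259 and 269 CPM, and fell by 0.47 ± 0.02. TOP2A, which untangles chromosomes, fell by 0.48 ± 0.02, and the proliferation marker MKI67 fell by 0.38 ± 0.02. CCNF, a cyclin that targets proteins for degradation, fell by 0.50 ± 0.04. These falls were smaller than the rises of MDM2 or GDF15 and more even from gene to gene.

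The mitotic genes were lower in cells with few CDKN1A UMIs too. At 1 to 4 CDKN1A UMIs the median log2 ratio of the 52 genes (with 1 CPM added) was −0.32 in the control, −0.38 after 10 mGy, −0.29 after 100 mGy and −0.23 after 1 Gy. At 10 or more UMIs it was −0.55, −0.51, −0.59 and −0.34. The medians over all 6487 genes of at least 20 CPM lay between −0.07 and 0.01 in both groups. Without the cells of 5 or more UMIs, 41 of the 52 were called lower, as were 204 of all 17939 genes tested in that fit. The chosen cells had fewer UMIs, so the other cells were also matched to them in UMI count. This kept 2658 of 8548 other cells in the control. Then 37 of the 52 were called lower, as were 134 of all 15086 genes, with a median of −0.34. The part of depth in the result was not tested. In cells thinned to 5000 UMIs, TOP2A was detected in 65.6%, 61.2%, 60.3% and 74.1% of those with 1 to 4 CDKN1A UMIs and in 72.2%, 67.0%, 66.5% and 77.3% of the other cells.

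**Figure D4:**
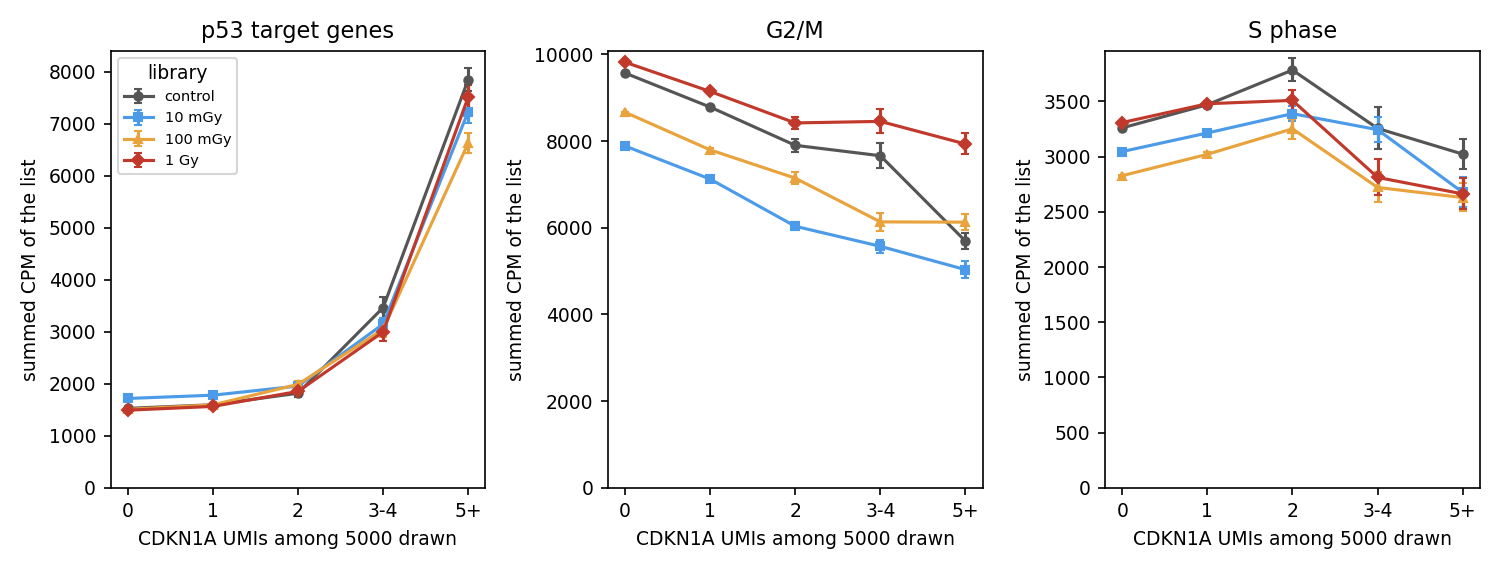
Summed CPM (y axis) of the p53 target, G2/M and S phase lists in kept cells grouped by the CDKN1A UMIs found among 5000 drawn UMIs (x axis), 1 line per library, with exact 95% counting intervals. The p53 sum climbs at 3 or more UMIs in all 4 libraries, the G2/M sum is lower at 1 UMI than at 0 and lowest at 5 or more, and the S phase sum is highest at 2 UMIs.

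Grouping all kept cells by CDKN1A after thinning gave the same picture. With no CDKN1A UMI among 5000, the p53 targets summed to 1527 CPM in the control, 1717 after 10 mGy, 1507 after 100 mGy and 1492 after 1 Gy. With 5 or more they summed to 7844, 7230, 6624 and 7510 CPM, in 26, 28, 36 and 27 cells. The G2/M list went from 9570, 7887, 8666 and 9819 CPM to 5691, 5033, 6130 and 7932 CPM. With 1 UMI, where the p53 sums were 1597, 1780, 1594 and 1564 CPM, the G2/M sums were already at 8785, 7123, 7797 and 9145 CPM.

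A few genes of the G1/S transition and of replication rose. Of 39 S phase genes, 5 were called higher, 0 lower and 34 not called, against 3.76% higher of all genes, and the median was 0.09. With the other cells matched in UMI count 2 of the 39 were called (PCNA and CCNE2), beside 510 higher of all 15086 genes. With a score after thinning 1 was called (PCNA), beside 692 higher of 17372. Without the 10 mGy library 3 were called, beside 418 higher of 18454, and without the 100 mGy library 3, beside 447 of 18343. Most of this lay in the cells with few CDKN1A UMIs, and the median was −0.05 when the score was taken after thinning, which keeps fewer and higher cells. The median over all genes was −0.04 in that fit. PCNA, the sliding clamp of DNA polymerases and itself a partner of p21, was at 228, 305, 239 and 206 CPM in chosen cells and at 176, 241, 178 and 166 CPM in the others (log2 difference 0.32 ± 0.02, adjusted p = 1.8e-41). It was higher at both ends, with 221, 312, 233 and 205 CPM at 1 to 4 CDKN1A UMIs and 294, 326, 312 and 254 CPM at 10 or more.

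CCNE2, the cyclin E that opens S phase, parted between the groups. It was at 57.1, 59.8, 39.2 and 60.2 CPM in cells with 1 to 4 CDKN1A UMIs, above the 41.1, 34.2, 26.3 and 42.3 CPM of the other cells. In cells with 10 or more it was at 25.3, 23.8, 17.5 and 17.7 CPM, below them in every library. Over all chosen cells its log2 difference was 0.38 ± 0.04. E2F2, a transcription factor of the same step, rose by 0.88 ± 0.10, and CCNE1 by 0.28 ± 0.08. MCM3, part of the replicative helicase, had 0.18 ± 0.03 and was not called. At 10 or more UMIs the median log2 ratio of 37 S phase genes was 0.09 in the control and −0.29, −0.23 and −0.35 after 10 mGy, 100 mGy and 1 Gy, with 24, 5, 8 and 3 of the 37 genes above the other cells. At 1 to 4 UMIs 36, 37, 36 and 36 of them were above. Of all 6487 genes of at least 20 CPM, 3032, 2505, 2651 and 2658 were above at 10 or more UMIs, and 3043, 3206, 3402 and 3104 at 1 to 4. With 1 library per dose, the difference between the control and the irradiated libraries was not tested. After thinning to 5000 UMIs, the S phase sums at 5 or more CDKN1A UMIs were 3023, 2677, 2629 and 2663 CPM. With no CDKN1A UMI they were 3261, 3046, 2828 and 3309 CPM, so there the control was lower too. Of the 15 genes of G1 cyclins, their kinases and the RB family, 3 were called higher and CCNA2, a cyclin of S and G2, was lower at −0.33 ± 0.03, where 3.76% and 0.989% of all genes were called. CCND1 had a log2 difference of 0.00 ± 0.03.

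Growth factor and cytokine genes were among the largest changes. AREG (ENSG00000109321), a ligand of the EGF receptor, was at 32.6, 35.5, 46.8 and 20.8 CPM in the chosen cells and at 4.47, 5.97, 4.78 and 3.93 CPM in the others. The difference was 6.82-fold (log2 2.77 ± 0.09, adjusted p = 6.2e-18). AREG was detected in 17 of 42, 19 of 54, 22 of 57 and 15 of 41 cells of the top group, with up to 81 UMIs in 1 cell. Without the cells of 5 or more CDKN1A UMIs AREG had a log2 difference of 0.30 and was not called. Of 18 genes that mark ERK pathway output, AREG, EREG and DUSP6 were called higher and 0 lower, where 3.76% and 0.989% of all genes were called. DUSP6, a phosphatase of ERK, lay at the edge of the limits (log2 difference 0.27 ± 0.10, adjusted p = 0.048) and was higher in 3 of 4 libraries. Of 22 secreted factors known from senescent cells, 6 were higher and 0 lower, beside the same 3.76% and 0.989%, with a median of 0.20, and AREG is on both lists. IL1A and IL1B, cytokines of inflammation, had log2 differences of 2.46 ± 0.25 and 1.41 ± 0.14, on 13 to 24 and 31 to 50 UMIs per chosen sum. Without the cells of 5 or more CDKN1A UMIs IL1A turned to −0.26.

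CCL2, a chemokine for monocytes, was still called without the top group. It was at 32.5, 63.1, 65.5 and 37.7 CPM in chosen cells and at 27.1, 40.6, 38.4 and 25.6 CPM in the others, and the log2 difference of 0.55 ± 0.04 was 0.51 without the cells of 10 or more CDKN1A UMIs and 0.43 without those of 5 or more. FSCN1, which bundles actin, was similar, with 0.47 ± 0.03 and 0.41. ANKRD1, a target of YAP, had 0.42 ± 0.03 and 0.38.

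Stress genes rose in part. Of 19 genes of the ATF4 response, DDIT3, DDIT4, CHAC1, SESN2, NUPR1 and STC2 were called higher and 0 lower, against 3.76% and 0.989% of all genes, with a median of 0.23. The 10 of them with at least 20 CPM had a median of only 0.04, against −0.05 over all genes of that level. SESN2 is also on the p53 list, and turned to −0.04 without the cells of 5 or more CDKN1A UMIs. DDIT3, the transcription factor CHOP, was at 14.2, 27.5, 22.7 and 17.0 CPM in chosen cells and at 7.46, 15.3, 10.4 and 8.35 CPM in the others, a log2 difference of 0.93 ± 0.06. NUPR1 rose by 1.57 ± 0.11. Of 24 immediate early genes, JUNB, EGR1, ATF3, KLF4 and BTG1 were higher and 0 lower, against the same shares, with a median of 0.15. ATF3 rose by 0.99 ± 0.05, and by 0.47 without the cells of 5 or more CDKN1A UMIs.

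**Figure D5:**
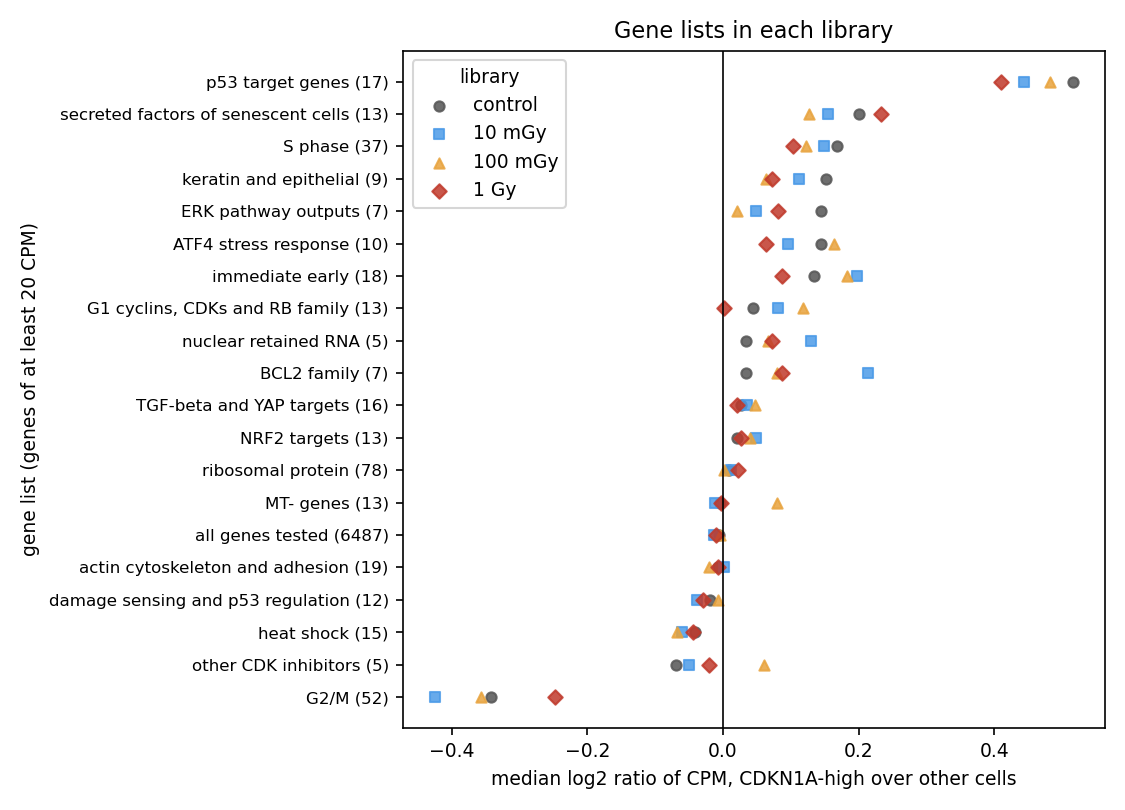
Median log2 ratio of CPM in CDKN1A-high over other cells (x axis) for each gene list with at least 5 genes of at least 20 CPM (y axis, number of genes in brackets), 1 symbol per library. The p53 targets lie between 0.41 and 0.52 and the G2/M list between −0.42 and −0.25, and most other lists lie within 0.2 of 0.

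The remaining lists are given beside the 3.76% of all genes called higher and the 0.989% called lower. Of 19 NRF2 targets only AKR1B10 was called, on 3 to 8 UMIs per chosen sum, and it passed the filter on low counts only through those sums. The median of the list was 0.04. Of 16 heat shock genes none was called, with a median of −0.08 and HSPA8 at −0.19 ± 0.02. None of 78 ribosomal protein genes and none of 13 MT- genes was called. Both lists had a fitted median of −0.04, and by the plain ratio of CPM the ribosomal list had medians from 0.0016 to 0.022. Of 20 genes of the actin cytoskeleton, ITGA2 was called higher, and ACTB and ACTG1 had −0.11 ± 0.02 and −0.18 ± 0.02. Of 20 TGF-beta and YAP targets ANKRD1, ACTA2 and INHBA were higher, against 3.76% of all genes, and the contractile actin ACTA2 had a log2 difference of 1.57 ± 0.11. The median of this list was 0.00. Of 14 genes of the BCL2 family, BBC3 and PMAIP1 were called higher, against 3.76% of all genes, and both are also on the p53 list. Of the RNAs that stay in the nucleus, NEAT1 had 0.22 ± 0.02 and MALAT1 0.02 ± 0.02, neither called. Among the genes with the largest changes outside these lists were APOBEC3C, a cytidine deaminase, at 0.57 ± 0.04, and SNHG12, a host gene of small nucleolar RNAs, at 0.56 ± 0.05. Neither was called without the cells of 5 or more CDKN1A UMIs.

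The difference of chosen and other cells was also set side by side for 1 Gy and the control. Among tested genes of at least 100 CPM, the genes whose log2 ratio after 1 Gy lay most below that of the control were FILIP1L (0.06 against 0.30), CFAP298 (−0.13 against 0.10), HBEGF (0.08 against 0.29), ETHE1 (−0.08 against 0.13) and ISG15 (0.11 against 0.31). Those most above it were ASXL1 (−0.03 against −0.24), FBN1 (0.25 against 0.05), CD99 (0.11 against −0.09), CKS2 (−0.20 against −0.40) and SMIM26 (0.05 against −0.14). These 10 genes were picked as extremes, have no test, and none of them is on the p53 list.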

How the data were processed

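Gene by cell matrices of 4 libraries of BEAS-2B cells were used. Per the labels and the submitters' processing notes, the authors made them with Cell Ranger, which aligns with STAR, on GRCh37, and the file header names Cell Ranger 7.0.1. The deposited values are raw counts of UMIs per gene and barcode. Cells with at least 5000 UMIs and at most 10% of UMIs in MT- genes were kept, no doublet caller was run, and cells above the 95th percentile of CDKN1A UMIs over total UMIs of their library were the members. Counts were summed over the members and over the other cells of each library, CDKN1A was removed, and the 8 sums were fitted with edgeR 4.0.16 (R 4.3.3; filterByExpr, TMM, robust quasi-likelihood test, Benjamini-Hochberg adjustment over all genes) with the library as a block, since members and others of a library come from the same sample. A gene was called at an adjusted p under 0.05 and a change over 1.2-fold. Within a dose, log2 ratios of CPM have exact 95% counting intervals and no test. Shares have exact Clopper-Pearson intervals. Thinning drew 5000 UMIs per cell without replacement.

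Named genes were the 12 largest rises and the 12 largest falls among called genes of at least 20 CPM with the same direction in 4 libraries (without ribosomal protein, MT- and clone-named genes), up to 4 genes of each list by size of change, a fixed set of known genes, and the 5 genes each way of at least 100 CPM whose ratio differed most between 1 Gy and control. BAX and POLH were named after their values were seen. The members and lists were chosen with earlier results of these data known. X-inactivation and Y-linked genes and repeated symbols are not reported here. Promoters came from RefSeq (GRCh38.p14) and were matched by symbol. No coordinates of the files were used. Alternatives were other percentiles, filters, scalings, DESeq2 1.42.0, limma 3.58.1, leaving out each library, and, added after seeing the data, leaving out members with many CDKN1A UMIs.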

Additional observations from a re-analysis of the deposited data

Results flagged for a closer look

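For 3 of the 130 genes named by rule the log2 ratio of CDKN1A-high over other cells had opposite signs in different libraries, with counting intervals that left out 0 on both sides. The difference between libraries was not tested, and intervals cover counting error only. MT-ND3, a subunit of respiratory complex I, had −0.04 at 10 mGy and 0.04 at 100 mGy. CFAP298, a gene named for cilia and flagella, had 0.10 in the control, −0.13 at 10 mGy and −0.13 at 1 Gy. CD99, a surface glycoprotein, had −0.09 in the control and 0.11 at 1 Gy. CFAP298 and CD99 were named because their ratios differed most between 1 Gy and control. Opposite signs between those libraries were favoured by that pick.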

How the results depend on the processing

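The p53 targets kept a positive median and the G2/M list a negative one under every alternative run. With the top 10% of cells the p53 median was 0.34, the G2/M median −0.31 and 106 genes were lower. With the top 2% these were 1.04, −0.48 and 504, and the S phase median was 0.022. With a score after thinning, 480 genes were lower, the p53 median was 1.18 and the S phase median −0.053, where the median over all genes was −0.037. With at most 5% of UMIs in MT- genes, 367 genes were higher and the p53 median was 0.78. Without members of 10 or more CDKN1A UMIs, 419 genes were higher, with medians of 0.19 (p53) and 0.14 (S phase), and without those of 5 or more, 324, with 0.12 and 0.13. SESN2 then turned to −0.041 and IL1A to −0.26. With no filter on low counts 374 genes were lower and the S phase median was 0.040. Scaling by total counts gave 109 lower and 0.14. At an unadjusted edgeR p under 0.05 it gave 2893 higher and 1701 lower, against 1906 and 3386 in the main fit. DESeq2 called 357 higher. limma called 83 lower, with medians of 0.13 (S phase) and −0.30 (G2/M). Without the fold limit 1180 were higher and 2315 lower. With no replicate block, and so without the pairing of members and others by library, edgeR called 41 higher and 0 lower, 522 and 167 at an unadjusted p under 0.05. DESeq2 with the block called 140 lower. Leaving out 1 library gave between 418 and 633 higher. After thinning, where the limit was more than 1 CDKN1A UMI, the share above it was 1.14% in the control. It was 1.55%, 1.11% and 1.07% at 10 mGy, 100 mGy and 1 Gy. With at least 10000 UMIs per cell the share above the threshold of the control was 4.72% at 100 mGy, against 5.01% in the control. The cause was not tested. With 1 library per dose, no difference between doses has a test, and a cell with 1 or 2 CDKN1A UMIs cannot be told from its neighbour by depth.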
